A study of Mus musculus with 6 samples.

Results

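Integrins are cell surface receptors made of 1 alpha and 1 beta subunit, and they tie the extracellular matrix to the actin cytoskeleton. The genes described here encode the alpha subunits Itga3, Itga5, Itga6 and Itgav, the beta subunits Itgb1, Itgb4 and Itgb5, and the adhesion kinases Ilk (integrin-linked kinase) and Ptk2 (focal adhesion kinase). They were taken as every probe of the array whose platform gene symbol is one of these 9 names. That gave 18 of the 45281 probes and covered 8 of the 9 genes, out of 19057 genes named on the array. No probe of the array was named Ptk2 in the annotation used, so focal adhesion kinase is not analysed here.

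E14, a line of mouse embryonic stem cells, had been kept on gelatin with serum and LIF and with no feeder layer. At day 4 after Lipofectamine transfection of an shRNA plasmid, 3 samples carried a scrambled shRNA and 3 carried one directed at Ncoa3, which encodes a nuclear receptor coactivator. The labels call the 3 samples of a group biological replicates, and nothing further is said of how the cultures were separated. The p-values therefore set the difference between groups against the spread between these samples only. Total RNA was hybridised to Illumina bead arrays, which give 1 intensity and 1 detection p-value per probe, and the detection p-value sets the probe's signal against the negative control beads.

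In the embryo and in stem cell culture, integrins decide which matrix a cell can grip. Receptors with Itga3 or Itga6 bind laminins, the receptor of Itga5 with Itgb1 binds fibronectin, and Itgav pairs with Itgb5 to bind vitronectin. Itgb1 is the common partner of many alpha subunits, whereas Itgb4 pairs with Itga6 and joins keratin filaments in hemidesmosomes. Ilk sits on the tail of beta subunits in a complex with PINCH and parvin proteins, and it acts there mainly as a scaffold.

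The arrays shared some features that bear on every value below. Between 15720 and 17105 probes were detected per array (detection p under 0.01), and arrays correlated at 0.994 to 0.996 within a group and at 0.970 to 0.973 between groups (Pearson, across kept probes). The single Ncoa3 probe did not rise above background on the 6 arrays, so the knockdown itself could not be checked. Titles and design text speak of Ncoa3, but the transfection protocol speaks of a plasmid with Esrrb shRNA, and Esrrb, an orphan nuclear receptor of pluripotent cells, fell by 0.62 ± 0.07 (SE) on the log2 scale (limma adjusted p = 3.58e-04). All 8 embryonic stem cell markers examined were detected on all 6 arrays, 1 higher and 7 lower after knockdown at their brightest kept probe. Over all named genes taken in that way, 22.4% were higher and 24.4% lower (limma adjusted p under 0.05). For Pou5f1 and Sox2 the kept probes differed in their call. The summed raw intensity of the 8 was 70075 to 78147 in scrambled and 57812 to 63316 in knockdown samples. Of 9 trophectoderm markers, 2 were detected on all scrambled arrays and 6 on all knockdown arrays, and their summed raw intensity ran from 1042 to 1150 in scrambled and from 2272 to 2642 in knockdown samples, with Eomes and Hand1 not above background on any array. Of 5 smooth muscle markers, 0 were detected on all scrambled and 3 on all knockdown arrays (summed raw intensity 409 to 448 against 1117 to 1183), with Cnn1 and Myh11 not above background on any array. Of 6 primitive endoderm markers, 1 was detected on all scrambled and 2 on all knockdown arrays (summed raw intensity 585 to 631 against 648 to 676), with Gata4 and Sox17 not above background on any array. Of 7 fibroblast markers, Thy1 alone was detected on all arrays of a group, the summed raw intensity was 794 to 815 against 659 to 672, and Col1a1, Col1a2, Col3a1 and Postn never exceeded background. Background was still in these summed intensities, the median raw intensity over all probes being 87.6 to 97.2 per array, so the sums do not measure amounts of RNA. In the embryonic stem cell sum, Dppa5a alone gave 37209 to 43203 in scrambled samples. The part of other cell types in the integrin changes was not tested, and in bulk RNA fewer cells of a type and less RNA per cell cannot be told apart.

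The promoter bases of 4 members whose probes passed the test are shown because 3 of these genes rose and 1 fell. Each is the 250 bases before the farthest upstream RefSeq start (GRCm38.p6), 5′ to 3′ on the gene's strand, with matches to GGGCGG, the GC box of SP and KLF factors, in capitals on either strand.
Itga3, chr11:95076715-95076964, minus strand: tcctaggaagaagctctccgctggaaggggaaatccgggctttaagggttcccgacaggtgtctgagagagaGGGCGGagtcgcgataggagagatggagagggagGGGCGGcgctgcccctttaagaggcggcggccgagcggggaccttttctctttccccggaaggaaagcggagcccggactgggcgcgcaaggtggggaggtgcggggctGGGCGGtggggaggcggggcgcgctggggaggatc
Itgb5, chr16:33829415-33829664, plus strand: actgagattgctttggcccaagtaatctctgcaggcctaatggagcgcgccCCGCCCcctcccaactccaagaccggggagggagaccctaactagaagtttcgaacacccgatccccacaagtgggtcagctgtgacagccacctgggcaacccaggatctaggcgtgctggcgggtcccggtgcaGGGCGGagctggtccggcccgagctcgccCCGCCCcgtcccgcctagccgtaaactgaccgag
Ilk, chr7:105736340-105736589, plus strand: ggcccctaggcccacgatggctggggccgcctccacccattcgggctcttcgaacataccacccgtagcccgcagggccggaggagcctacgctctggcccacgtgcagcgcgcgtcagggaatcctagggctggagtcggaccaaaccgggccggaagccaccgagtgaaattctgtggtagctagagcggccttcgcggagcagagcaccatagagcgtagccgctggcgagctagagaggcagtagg
Itga5, chr15:103366792-103367041, minus strand: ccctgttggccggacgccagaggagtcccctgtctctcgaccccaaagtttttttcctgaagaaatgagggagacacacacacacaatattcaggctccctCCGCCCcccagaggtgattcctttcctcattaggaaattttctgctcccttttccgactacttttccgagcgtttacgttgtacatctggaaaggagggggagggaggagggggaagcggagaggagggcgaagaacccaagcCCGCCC

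The windows of Itga3 and Itgb5, which rose, held 3 GC boxes each, that of Itga5, which fell, held 2, and that of Ilk, which rose, held 0. Itgb1 had 1 and Itgav 0, and windows for Itga6, Itgb4 and Ptk2 were not used here. Of 32851 windows of the same length in the table, 32.7% held at least 1 GC box. The letters GGAATG (TEAD), TGANTCA (AP-1) and AGGTCA (the core site of nuclear receptors), on either strand, occurred in 12.6%, 6.75% and 14.0% of all windows, and among the 6 member windows the single match was 1 GGAATG before Itgb1. No base lay in more than 1 match. These matches describe the letters of the windows and are not evidence of binding.

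The design sets Ncoa3 shRNA against scrambled shRNA 4 days after transfection. Among the members, Itga3 rose 2.79-fold, both Itgb4 probes rose 1.94-fold and 2.05-fold, Ilk rose 1.96-fold and Itgb5 rose 1.41-fold. Itga5 fell 1.45-fold on its brighter probe. Itgav and Itga6 had no probe past the test, and the probes of Itgb1 differed in their call. To be tested, a probe had to reach a detection p below 0.01 on 3 or more arrays, which 13 of the 18 member probes and 16674 of all probes did. Of the 13, 6 were higher, 2 lower and 5 not called at a limma adjusted p under 0.05, where 20.9% of all kept probes were higher and 22.8% lower (43.6% in either direction). All 3 knockdown arrays lay above all 3 scrambled arrays for 6 of the 13, and below them for 2, where the shares over all kept probes were 25.4% and 29.8%. Both counts of 6 include the second Itgb1 probe, which was detected on 0 scrambled and 3 knockdown arrays and so was kept through the knockdown arrays alone. The median log2 change was 0.32 over the 13 probes and -0.03 over all kept probes. The member median was 0.16 with normexp without negative controls and 0.14 with no background step. It was 0.14 with the authors' normalized values (0.02 over all kept probes) and 0.47 with median scaling (0.09 over all kept probes). By brightest kept probe, 4 of the 8 member genes were higher and 1 lower, where 22.4% and 24.4% of all named genes were.

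**Figure D1:**
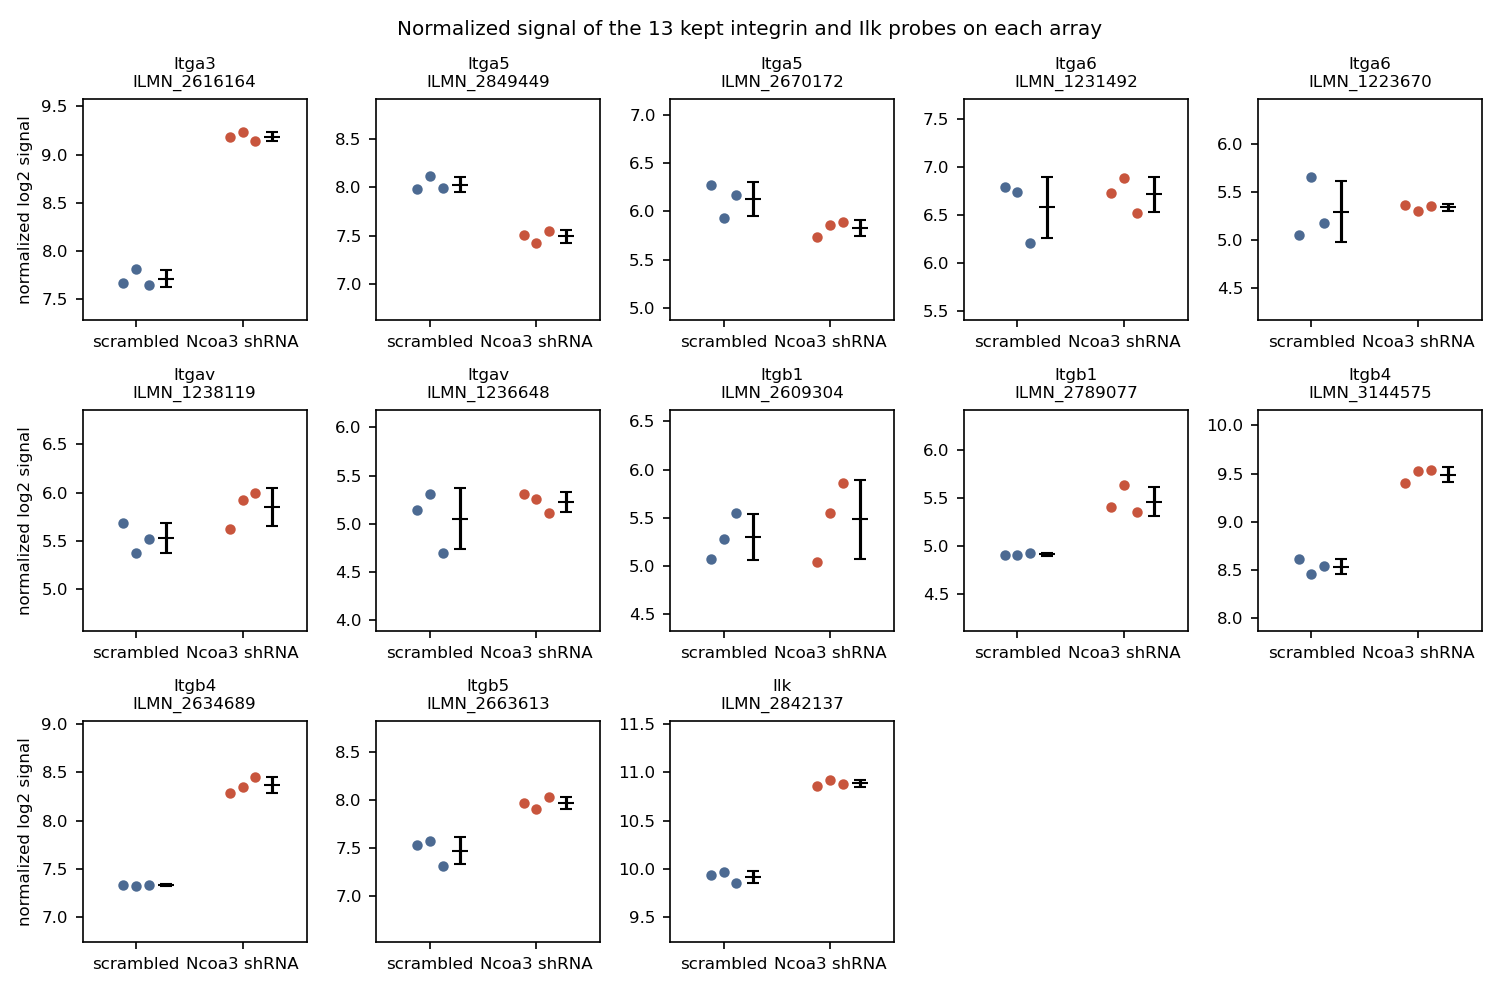
Normalized log2 signal (vertical axes, each spanning the same range) of the 13 kept integrin and Ilk probes, with 1 point per array, scrambled in blue and Ncoa3 shRNA in red, and bars for the mean ± SD (n = 3). The groups lie apart for Itga3, Itga5, Itgb4, Itgb5, Ilk and the second Itgb1 probe, and overlap for the Itga6, Itgav and first Itgb1 probes.

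The laminin receptors were led by Itga3, a subunit that pairs with Itgb1. Its single probe (ILMN_2616164, chromosome 11) had normalized log2 signals of 7.67, 7.81 and 7.65 on scrambled arrays 1 to 3 and of 9.18, 9.23 and 9.15 on knockdown arrays 1 to 3. All knockdown arrays were above all scrambled arrays, and the arrays of a group lay close together. The log2 change was 1.48 ± 0.07 (SE), between means of 7.71 ± 0.09 and 9.19 ± 0.04 (SD, n = 3), and limma's adjusted p was 7.34e-06. In raw intensity the same probe went from 268 ± 8.79 to 682 ± 68.4 (SD, n = 3).

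Itgb4, the hemidesmosome subunit, lies on chromosome 11 as Itga3 does. Its brighter probe (ILMN_3144575) had log2 signals of 8.61, 8.46 and 8.54 in scrambled and 9.40, 9.53 and 9.54 in knockdown samples. Its second probe (ILMN_2634689) had 7.34, 7.32 and 7.33 against 8.29, 8.35 and 8.45. Every knockdown array was above every scrambled array on both probes, with log2 changes of 0.95 ± 0.07 and 1.04 ± 0.07 (SE). The adjusted p-values were 6.22e-05 and 2.95e-05.

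Itga6, the alpha subunit that binds Itgb4, had no probe past the test. Its brighter probe (ILMN_1231492, chromosome 2) had log2 signals of 6.79, 6.74 and 6.21 in scrambled and 6.73, 6.89 and 6.53 in knockdown samples, so the groups overlapped and scrambled array 3 was the lowest of all. The log2 change was 0.13 ± 0.17 (SE, adjusted p = 0.549). A second kept probe (ILMN_1223670) had a change of 0.04 ± 0.15 (SE, adjusted p = 0.834), with raw intensities of 102 to 114 on all 6 arrays. The last Itga6 probe, which the annotation ties to a cDNA clone, did not exceed background on the 6 arrays. The difference between the changes of Itgb4 and Itga6 was itself not tested.

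The fibronectin receptor subunit Itga5 was the only member with probes called lower, on both of its probes. Its brighter probe (ILMN_2849449, chromosome 15) had log2 signals of 7.98, 8.12 and 7.99 in scrambled and 7.501, 7.42 and 7.55 in knockdown samples. The groups did not overlap, and the log2 change was -0.54 ± 0.07 (SE, adjusted p = 7.68e-04), between means of 8.03 ± 0.07 and 7.49 ± 0.06 (SD, n = 3). In the authors' normalized values the fall was smaller, at -0.33 (adjusted p = 1.81e-04). The dimmer probe (ILMN_2670172) had 6.28, 5.93 and 6.17 against 5.73, 5.86 and 5.89, so that the groups were only just apart. Its change of -0.30 ± 0.10 (SE) had an adjusted p of 0.0460 and was not called under 13 of the 16 other settings that gave it a value. Those 13 included leaving out scrambled replicate 1 (-0.22) or 3 (-0.28) or knockdown replicate 1 (-0.25), 2 (-0.31) or 3 (-0.33).

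Itgb5, the vitronectin receptor subunit, rose. Its single probe (ILMN_2663613, chromosome 16) had log2 signals of 7.53, 7.58 and 7.31 in scrambled and 7.96, 7.91 and 8.03 in knockdown samples, with no overlap. The log2 change was 0.50 ± 0.09 (SE), with an adjusted p of 0.00309. Itgav, which pairs with it, had 5.69, 5.37 and 5.52 against 5.62, 5.93 and 5.998 on its brightest probe (ILMN_1238119, chromosome 2), so knockdown array 1 fell within the scrambled range. That change of 0.32 ± 0.12 (SE) did not pass the test (adjusted p = 0.0674). It was 0.14 with no background step and 0.14 with the authors' values, not called in either. It did pass with cyclic loess (0.36, adjusted p = 0.0470), with median scaling over all probes (0.47, adjusted p = 0.0272), without scrambled replicate 1 (0.40, adjusted p = 0.0438) and without knockdown replicate 1 (0.44, adjusted p = 0.0222). A second kept Itgav probe (ILMN_1236648) had a change of 0.17 ± 0.15 (SE, adjusted p = 0.394), and the remaining 3 of the 5 Itgav probes, all placed on cDNA clones, were not above background on any array.

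Itgb1, the beta subunit shared by the Itga3, Itga5 and Itga6 receptors, gave dim signals on both of its probes (chromosome 8). The first (ILMN_2609304) had log2 signals of 5.07, 5.28 and 5.55 in scrambled and 5.04, 5.55 and 5.86 in knockdown samples and was detected on 2 arrays of each group. Its groups overlapped and its change was 0.19 ± 0.21 (SE, adjusted p = 0.509). The second (ILMN_2789077) had 4.91, 4.90 and 4.93 against 5.40, 5.63 and 5.35. It was not above background on any scrambled array and was detected on all 3 knockdown arrays, so with the main background correction its rise was at least 1.23-fold (adjusted p = 0.00168). That bound sets the knockdown mean against the lowest signal among detected probes on each scrambled array. Like every "at least" value in the text, it holds for that background correction only, and other corrections gave smaller changes. Its log2 change was 0.55 ± 0.08 (SE), and 0.23 with normexp without negative controls, 0.21 with no background step and 0.17 with the values the authors normalized, with all 3 values past the test.

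Ilk was measured by 1 bright probe (ILMN_2842137, chromosome 7). Its log2 signals were 9.93, 9.96 and 9.85 in scrambled and 10.85, 10.92 and 10.88 in knockdown samples. The groups were far apart, and the change of 0.97 ± 0.06 (SE) had an adjusted p of 3.23e-05. In raw intensity the probe went from 988 ± 31.4 to 2017 ± 183 (SD, n = 3). A second Ilk probe on the same chromosome (ILMN_2662428) was not above background on any array, at 95.1 ± 7.96 and 91.8 ± 4.40 raw intensity (SD, n = 3).

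**Figure D2:**
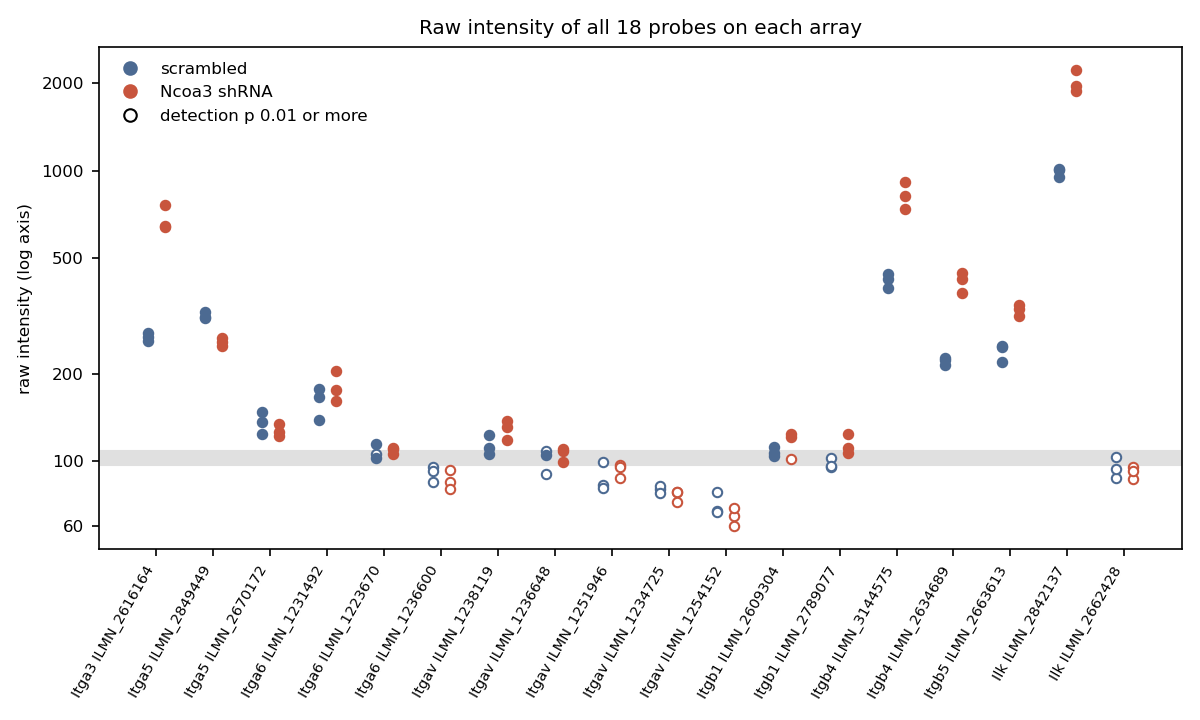
Raw intensity on a log axis of all 18 member probes, with 1 point per array, scrambled in blue and Ncoa3 shRNA in red, open where the detection p was 0.01 or more. The grey band, 96.8 to 109, spans the lowest intensity called detected on each of the 6 arrays, and both Itgb1 probes and most Itgav and Itga6 probes lie in or close to it.

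The dim members limit what can be said of them. The lowest intensity that counted as detected was between 96.8 and 109 on the 6 arrays, and the mean of the first Itgb1 probe was 107 in scrambled samples and 116 in knockdown samples. Intensities of different probes cannot be set against each other as transcript levels, so a dim Itgb1 probe does not show that Itgb1 was scarce.

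**Figure D3:**
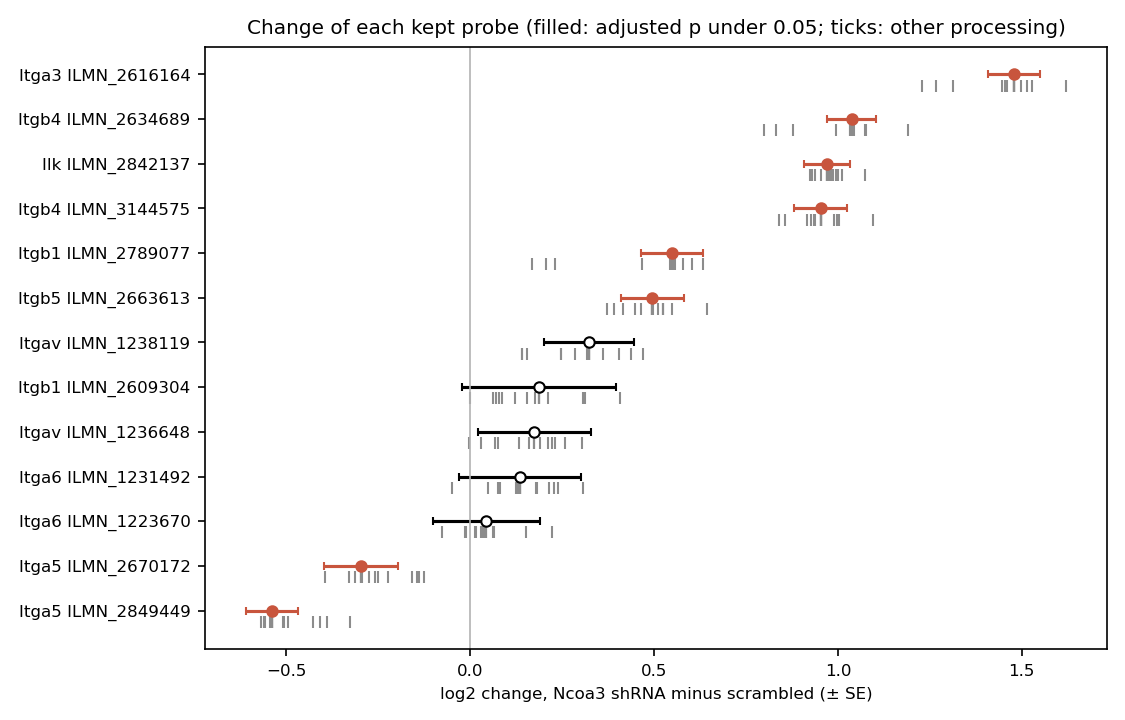
Log2 change (knockdown minus scrambled, ± SE) of the 13 kept probes, filled where the adjusted p was under 0.05, with grey ticks for the value under each other processing setting. Itga3, Itgb4, Itgb5, Ilk and the second Itgb1 probe stay above 0 and both Itga5 probes below 0 under every setting run.

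Among the integrin subunits outside the members, 3 fell. Of 18 with a probe, 13 had no kept probe, and 11 of those were not above background on any array, among them Itgb3, Itgb8 and the leukocyte subunits Itgam and Itgb2. Of the 5 measured, 0 were higher and 3 lower at a limma adjusted p under 0.05. Taken at their brightest kept probe, 22.4% of all measured named genes were higher and 24.4% lower, and their median was -0.03. Itgb7, a subunit known from lymphocyte homing receptors, fell 4.08-fold, with a log2 change of -2.03 ± 0.07 (SE, adjusted p = 1.64e-06), which was -1.32 with the authors' values. Itga9, which binds tenascin and other ligands with Itgb1, fell 2.42-fold (-1.28 ± 0.14, adjusted p = 3.17e-04). Itgae, the partner of Itgb7, had a change of -0.29 ± 0.09 (SE, adjusted p = 0.0324), and its second kept probe of -0.28. On its brightest probe Itgae was not called with cyclic loess, median scaling, the authors' values, no filter on dim probes or the replicate block, or without scrambled replicate 2 (-0.20) or 3 (-0.32) or knockdown replicate 1 (-0.31), 2 (-0.27) or 3 (-0.28). Itga2b and Itga8 had changes of 0.21 and 0.12 and were not called.

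The genes on the list of adhesion adaptors moved in both directions. Of 24 measured adhesion adaptors, 11 were higher and 4 lower, with a median of 0.25. The 11 include Lpp and Fermt1, whose brightest kept probes were detected on 0 scrambled and 3 knockdown arrays. Those probes were kept through the knockdown arrays alone. The shares over all measured named genes were 22.4% higher and 24.4% lower. Filamin C (Flnc), an actin crosslinker, rose 5.61-fold, the LIM protein zyxin (Zyx) 3.10-fold and its relative Lpp at least 2.70-fold. A second kept Lpp probe was also called higher and a dimmer one, at 0.36, was not called (adjusted p = 0.117). Kindlin-1 (Fermt1), which binds beta tails to activate integrins, rose at least 1.70-fold, whereas kindlin-2 (Fermt2) had a change of 0.07 ± 0.07 (SE, adjusted p = 0.486). Tensin-1 (Tns1) fell 2.65-fold. With the authors' values the log2 changes of these dim probes were smaller and still called, at 0.76 against 1.71 for Lpp, 0.57 against 1.43 for Fermt1 and -0.67 against -1.40 for Tns1. The vinculin gene Vcl, at 0.58, and the scaffold Bcar1, at 0.80, also rose, and paxillin (Pxn), at 0.28, was not called (adjusted p = 0.0994). It passed with 7 of the other settings, among them median scaling over all probes (0.43) and leaving out scrambled replicate 1 (0.38). The smaller falls were those of talin-2 (Tln2), at -0.25, and Tns3, at -0.20, and both genes had other kept probes that were not called and had changes above 0. Itgb1bp1 was not called on its brightest probe and lower on another, at -0.32. Itgb1bp1, Vcl, Bcar1, Pxn, Fermt2, Tln2 and Tns3 were named after their values were seen.

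Members of the complex around Ilk moved in both directions. Alpha-parvin (Parva), which binds the kinase domain of Ilk, had a log2 change of 1.25 ± 0.07 (SE, adjusted p = 1.54e-05), with no overlap between the groups. Lims2, which encodes PINCH-2, fell 2.74-fold on its brightest probe (-1.45 ± 0.09, adjusted p = 2.91e-05), with a log2 change of -0.69 with the authors' values, and a second kept probe was also lower. The Ras suppressor Rsu1, a PINCH ligand, had a change of 0.12 ± 0.11 (SE, adjusted p = 0.4005). Lims1, Parvb and Parvg were not above background on any array. Parva, Rsu1, Lims1, Parvb and Parvg were picked after the values were seen.

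Signalling proteins downstream of integrins also moved both ways. Of 17 measured, 6 were higher and 3 lower, with a median of 0.16, where 22.4% of all measured named genes were higher and 24.4% lower. Kept probes differed in their call for 4 of the 17. Crk, an adaptor counted as higher at 0.27, was lower on another probe (-0.38, adjusted p = 0.0426). Dock1 and Git2, counted as not called, were higher on another probe, at 0.92 and 0.37. The Dock1 probe at 0.92, tied to a cDNA clone, was detected on 0 scrambled and 3 knockdown arrays and so was kept through the latter alone. The other kept Dock1 probes, detected on all 6 arrays, had changes of -0.13 and -0.10 and were not called. The kinase Src, which works with focal adhesion kinase, rose 1.55-fold (adjusted p = 2.25e-04), between log2 means of 7.91 ± 0.02 and 8.54 ± 0.06 (SD, n = 3). The exchange factor Rapgef1 rose 1.65-fold and the GTPase Rac1 1.31-fold. Cdc42 rose 1.24-fold, a call that was lost without scrambled replicate 1 (log2 change 0.29) or 2 (0.29) or without knockdown replicate 1 (0.30) or 2 (0.24). The adaptor Grb7, which binds focal adhesion kinase, fell 1.62-fold. Arhgap26, a GTPase-activating protein that binds focal adhesion kinase, had no knockdown array above background, a fall of at least 1.24-fold (adjusted p = 0.0250), though its log2 change of -0.55 was -0.21 with no background step. That call was lost with no filter on dim probes, with the replicate block, and without scrambled replicate 2 (-0.41) or knockdown replicate 2 (-0.45) or 3 (-0.50). The kinase Map4k4 was lower on its brightest probe, at -0.24, and higher on another, at 0.39. Crk, Dock1, Git2 and Map4k4 were named after their values were seen. Ptk2b, the relative of focal adhesion kinase, had no kept probe.

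Matrix ligands and membrane partners of the receptors were mostly higher, where 22.4% of all measured named genes were higher and 24.4% lower. Of 13 measured ligands, 9 were higher and 3 lower (median 0.59), among them the laminin chain Lamb3 at 4.52-fold higher, the matricellular proteins Ccn2 at 4.03-fold and Ccn1 at least 4.85-fold higher, the collagen IV chains Col4a2 and Col4a1 at 2.08-fold and 1.78-fold higher, and Tgfb1 at 1.67-fold lower. Ccn1, counted among the 9, was detected on 0 scrambled and 3 knockdown arrays and so was kept through the knockdown arrays alone. The log2 change of Ccn1 was 2.69 and went down to 1.38 with the authors' values. That of Lamb3 was 2.18 and went down to 1.27 with no background step, and both were still called. Nid1 and Lama1 also fell, at -0.56 and -0.33, with a second Nid1 probe at -0.38 not called (adjusted p = 0.0779), and fibronectin (Fn1), the ligand of the Itga5 receptor, had a change of -0.14 ± 0.10 (SE, adjusted p = 0.318). Nid1, Lama1 and Fn1 were picked once values were known. Of 9 measured membrane partners and hemidesmosome genes, 6 were higher and 0 lower (median 0.71). Plectin (Plec), the linker between Itgb4 and keratins, rose 2.44-fold, and its second kept probe rose 2.53-fold. Dystonin (Dst), listed as a further hemidesmosome linker, rose 1.64-fold on its brightest kept probe, which is tied to a cDNA clone. Its other kept probes were also higher, and the remaining Dst probes were not above background on any array. Which transcript forms of Dst the probes read was not examined. Col17a1, also on this list and named after its values were seen, had no kept probe and was not tested. Its brightest probe (ILMN_1240481) was detected on 2 scrambled and 0 knockdown arrays, with mean log2 signals of 5.24 in scrambled and 4.66 in knockdown samples. Cd151, the tetraspanin that binds Itga3 and Itga6 receptors, rose 1.66-fold, and Cd63, Cd47 and Cd81 rose 1.82-fold, 1.68-fold and 1.26-fold. Cd9, named after its value was seen, had a change of 0.12 that was not called (adjusted p = 0.163), though it was in the authors' normalized values (0.15) and with a trended and robust prior. These lists are described by their counts, and no list was tested as a set.

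**Figure D4:**
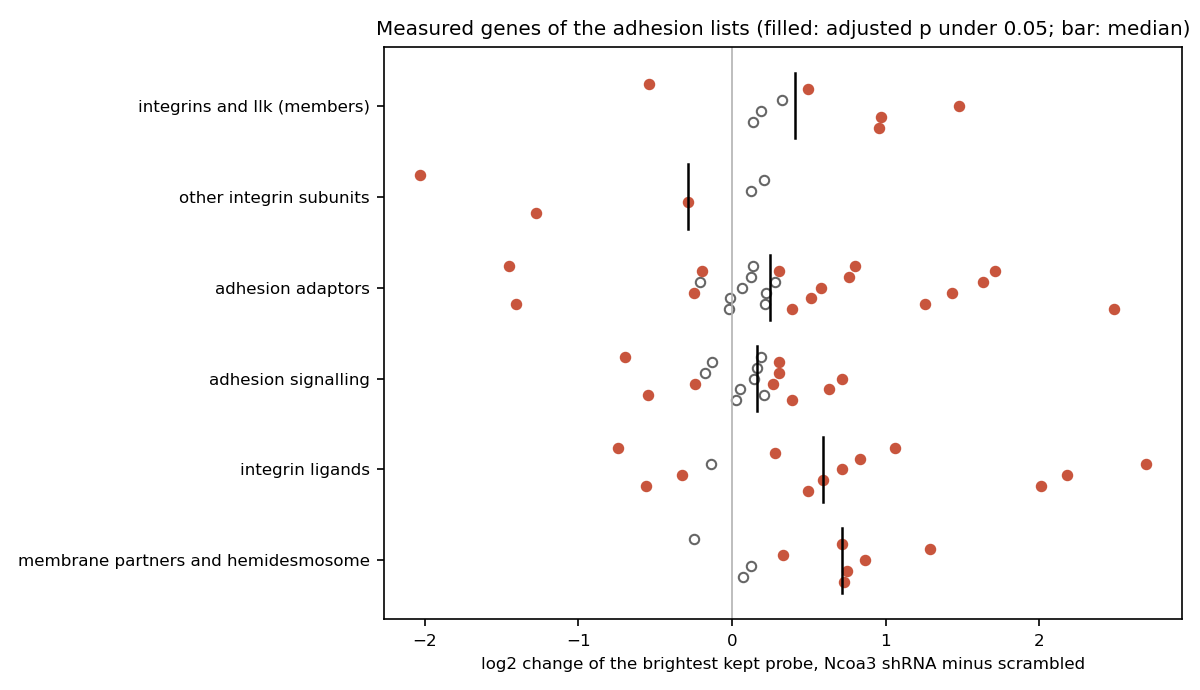
Log2 change (knockdown minus scrambled) of the brightest kept probe of each measured gene, for the members and the 5 other adhesion lists, filled where the adjusted p was under 0.05, with a bar at each median. Member and membrane partner medians lie at 0.41 and 0.71, and that of the other integrin subunits at -0.29.

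Genes whose pattern over the 6 arrays was closest to the member with the largest rise and the largest fall were found by the Euclidean distance between log2 values centred on their mean. For Itga3 they were Sowahb (distance 0.110), the keratin Krt8 (0.136) and the hydrolase Nudt18 (0.139), with log2 changes of 1.48, 1.49 and 1.44. For the brighter Itga5 probe they were Ppdpf (0.0599), Rap1gap (0.0777), a GTPase-activating protein for Rap1, and the homeobox gene Evx1 (0.0792), with changes of -0.53, -0.56 and -0.48. With 2 groups of 3 arrays such a distance mostly reads the size of the change, and it is given as a description.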

How the data were processed

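Gene expression was measured on 6 Illumina bead arrays, 3 per group, with groups and replicate numbers taken from the sample titles. Per the file headers, the deposited signal table holds non-normalized intensity with a detection p-value per probe, and background was still in it, the lowest value per array being 45.0 to 54.2. The authors' normalized values, also deposited as linear intensity, kept the rank order of the raw signal (rank correlation 1), by a method that is not given in the sources used here. On knockdown array 3 they equalled the raw signal (largest difference 0), so background was still in them on that array. With limma 3.58.1 (R 4.3.3), the steps of neqc took the background from the detection p-values, corrected for it and added an offset of 16. The corrected values were put on the log2 scale and quantile normalized. Probes with detection p under 0.01 on at least 3 arrays were kept (16674, with 28607 removed), so a probe silent in one group had to be detected on every array of the other. Every kept probe was tested with lmFit and eBayes, without covariates, 2-sided, with Benjamini-Hochberg adjustment over all of them. Every adjusted p in the text is limma's. Precision is limited by the number of arrays: permuting 3 against 3 exactly gives no p under 0.1. Names came from GEO's platform annotation (34885 probes with 1 gene, 18 with several, 10378 unnamed), and chromosomes and promoter bases from RefSeq (GRCm38.p6). A list gene was represented by its brightest kept probe. The named genes were all member probes, every measured other integrin subunit, the called genes with the largest changes in each list (up to 6), and the 3 nearest patterns. The members and lists were chosen with earlier results of these data known. Alternatives were other background corrections (normexp with an offset of 50, and none, with values floored at 16), median scaling, cyclic loess, the values the authors normalized, other filters, 1 probe per gene, a trended and robust prior, array weights, a replicate block and each array left out. Slide as a block was not run, since no slide was given.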

Additional observations from a re-analysis of the deposited data

How the results depend on the processing

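Over the 17 other settings, Itga3, the brighter Itga5 probe, both Itgb4 probes, Itgb5, Ilk and the second Itgb1 probe kept their direction and call wherever a value could be had. The number of all probes called ran from 5524 to 8100 against 7274. Calls of at least 1.5-fold numbered 2513, 1263 with normexp without negative controls, 1157 with no background step and 1191 with the values the authors normalized. Member probes called higher were 4 to 7 against 6, the lowest with 1 probe per gene. Those called lower were 1 instead of 2 with both other background corrections, cyclic loess, median scaling, the authors' values, no filter on dim probes, 1 probe per gene, a trended and robust prior, and the replicate block, and 1 to 2 with arrays left out. With 1 probe per gene the dimmer Itga5 probe is not tested by construction, and elsewhere the cause was not tested. Under median scaling the median over kept probes went from -0.03 to 0.09 and the share of calls that were higher from 47.8% to 69.9% (59.7% in the authors' values). The brighter Itga5 probe was then at -0.39. Adaptors called lower were 2 instead of 4 with median scaling and without the filter, and 2 to 4 with arrays left out. Signalling genes called higher were 10 instead of 6 in the authors' values and 3 to 6 with arrays left out. Those called lower were 1 instead of 3 without the filter and with the replicate block, and 1 to 4 with arrays left out. Changes that switched sign were uncalled before and after: Itga6 on its brighter probe without scrambled replicate 3 (-0.050, the range with arrays left out reaching 0.24), Itga6 on its dimmer probe with the authors' values (-0.011) and without scrambled replicate 1 (-0.076) or 3 (-0.015; highest 0.22), the second Itgav probe without scrambled replicate 3 (-0.0029; highest 0.30), and Itga8 without scrambled replicate 1 (-0.0060; highest 0.28). Same-numbered samples did not deviate together (correlations of -0.004, -0.006 and 0.015), so the numbers were not treated as pairs. The replicate block called 6647 probes in all, and no member probe but the dimmer Itga5 probe lost its call under it. Both Itgb1 probes, the kept Itgav probes and the dimmer Itga6 probes lay near the detection limit.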
